A study of Mus musculus with 17 samples.

Results

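The 10 genes followed here mark GABAergic inhibitory interneurons or encode their peptides. They were measured by bulk RNA sequencing of mouse dorsal hippocampus and taken as the rows of the deposited count table with the symbols Gad1, Gad2, Slc32a1, Sst, Pvalb, Vip, Npy, Cck, Lhx6 and Htr3a, 10 of 24498 symbols. Mice of 2 genotypes were used, wild type (WT) and constitutive knockout (KO) of Acss2, which encodes a nuclear and cytosolic acetyl-CoA synthetase. At 6 months of age each mouse was injected intracranially with PBS or with pathological tau purified from the brains of patients with Alzheimer's disease (Tau), and tissue was taken 6 months later. In males each genotype received either injection, which gave 4 groups of 3 libraries (WT PBS, WT Tau, KO PBS and KO Tau). In females both genotypes received Tau, with 2 WT and 3 KO libraries, so that 6 groups held 17 libraries. No female mouse received PBS, and the libraries of females carry another series of numbers than those of males, so sex and library series cannot be told apart. Single libraries are called by their group and the number in their label. Poly(A) RNA came from slices that held the dentate gyrus and CA1 to CA3. The labels place paraformaldehyde perfusion before RNA extraction, whereas the study's methods give it for histology.

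GABAergic interneurons are the local inhibitory cells of the hippocampus and cortex. They make GABA from glutamate with the 2 decarboxylases encoded by Gad1 and Gad2 and load it into vesicles with the transporter encoded by Slc32a1. Subclasses are told apart by what else they make: cells from the medial ganglionic eminence depend on the transcription factor Lhx6 and hold somatostatin (Sst) or the calcium-binding protein parvalbumin (Pvalb), and cells from the caudal ganglionic eminence often carry the ionotropic serotonin receptor Htr3a and may make vasoactive intestinal peptide (Vip) or cholecystokinin (Cck). Neuropeptide Y (Npy) is made by cells of both origins, and Cck is also transcribed in pyramidal cells, so it does not mark interneurons alone. In bulk tissue, fewer cells of a type and less RNA per cell cannot be told apart.

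In the main tests none of the 10 genes passed the threshold between genotypes or between Tau and PBS, in males or females. Under Tau, 7 of the 10 were lower in female than in male libraries (12.4% of all genes tested were), most of all Sst at 0.432-fold and Npy at 0.443-fold. Gad2, Pvalb and Vip did not pass the test. Without female WT Tau 331, 3 of the 10 were lower (1.63% of all genes tested were). Among the 12 male libraries, male KO Tau 711 was the lowest for 7 of the 10 genes and male KO PBS 752 the highest for 6. How often these libraries were the extremes over all genes was not counted. The calls on Vip in the double-hit group (KO with Tau) turned on whether these libraries were kept.

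Of the 4 peptide genes 3 were lower in females and Vip did not pass, so the sequences at their starts are shown for comparison. The reference was RefSeq on GRCm38.p6. The letters searched were the cAMP response element TGACGTCA and its core motif TGACG, the latter on both strands, where it reads CGTCA, and each TGACGTCA holds 2 overlapping core motifs, 1 on each strand. Of 32851 windows of 250 bases before a RefSeq start, 1.55% held the full element and 17.8% at least 1 core motif. The element was chosen after the values were seen. Capitals mark the matches. For Sst a stretch of 30 bases is given (chr16:23890874-23890903, minus strand), since the GENCODE gene model begins upstream of the RefSeq start, and for Vip (chr10:5638968-5639217, plus strand), Npy (chr6:49822460-49822709, plus strand) and Cck (chr9:121495695-121495944, minus strand) the whole window is given.
Sst: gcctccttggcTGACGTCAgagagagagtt
Vip: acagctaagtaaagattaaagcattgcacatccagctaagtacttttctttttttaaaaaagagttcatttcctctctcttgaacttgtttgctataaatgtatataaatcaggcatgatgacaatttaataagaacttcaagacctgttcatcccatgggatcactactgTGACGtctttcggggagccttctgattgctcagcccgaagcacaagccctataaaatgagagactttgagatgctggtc
Npy: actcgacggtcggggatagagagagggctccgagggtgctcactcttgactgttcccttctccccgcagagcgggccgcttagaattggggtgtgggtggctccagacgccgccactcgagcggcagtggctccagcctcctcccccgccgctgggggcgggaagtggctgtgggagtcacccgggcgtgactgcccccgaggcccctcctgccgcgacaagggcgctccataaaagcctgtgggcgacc
Cck: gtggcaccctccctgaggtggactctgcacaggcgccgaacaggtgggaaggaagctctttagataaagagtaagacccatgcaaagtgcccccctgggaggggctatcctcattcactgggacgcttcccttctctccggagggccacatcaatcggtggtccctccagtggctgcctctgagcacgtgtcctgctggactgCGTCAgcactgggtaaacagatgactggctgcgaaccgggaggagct

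The Sst window held the full element, its core motifs 48 and 45 bases before the start. Vip had 1 core motif 79 bases before its start and Cck 1 at 47 bases, and the Npy window had none. Among the other members, 1 window of Gad2 had a core motif, 33 bases before the start, and those of Gad1, Slc32a1, Pvalb and Lhx6 had none, so that 4 of the 12 windows of the 9 members with an entry matched. Of the peptide genes, Sst and Cck had matches and were lower in females, Npy was lower with no match, and Vip did not pass with 1. A relation between the matches and the expression calls given below was not tested.

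By the GENCODE M21 annotation of GRCm38, 4 members lie on chromosome 2, which also carries Acss2: Gad1 (70553072 to 70602014, plus strand), Gad2 (22622205 to 22693874, plus strand), Slc32a1 (158610767 to 158615748, plus strand) and Lhx6 (36081953 to 36105408, minus strand). Slc32a1 is 3.03 Mb from Acss2 and the other 3 are 84.92 to 132.82 Mb away. The rest are spread over 5 chromosomes, with Sst on chromosome 16 (23889573 to 23890958, minus strand), Pvalb on 15 (78191114 to 78206400, minus strand), Vip on 10 (5639218 to 5647617, plus strand), Npy on 6 (49822710 to 49829507, plus strand), and Cck (121489824 to 121495694) and Htr3a (48899213 to 48911099) on the minus strand of chromosome 9. All are protein-coding and counts were taken over their exons.

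Libraries held 14183131 to 22463635 counts, so that the members, with 89 to 9313 counts per library, lay far above the 3 counts taken as the limit of detection (0.134 to 0.212 CPM, the count scaled by the library total). Acss2 read 3.07 to 8.81 CPM in the 9 KO libraries and 44 to 54.6 CPM in the 8 WT libraries, which matched the genotype labels. Slc17a7, the vesicular glutamate transporter of hippocampal pyramidal cells, was present in every library at 723 to 1860 CPM. Each gene of the CA1 and dentate granule cell lists was also present in every library, but some were low in male KO PBS 752 and male KO Tau 712. In that order, Dsp read 0.907 and 4.64 CPM (15.6 to 88.7 in the others) and C1ql2 4.96 and 25.7 (30 to 171). Fibcd1 of the CA1 list read 19.8 and 21.9 CPM (32.5 to 257 in the others). Of the CA3 list, Iyd was at 0.0605 CPM in male KO PBS 752, under that library's detection limit of 0.181 CPM, and at 0.156 in male KO Tau 712, against 1.74 to 6.08 in the others. Male KO PBS 752 stood apart, with a summed level of 8 striatal medium spiny neuron markers of 481 CPM against 73.4 to 167 in the other 11 male libraries, and with the lowest sums of dentate (140), CA1 (349) and CA3 (124) markers among males. Since striatal projection neurons are themselves GABAergic, results are also given without this library, and without male KO Tau 711, which had the highest male sums of oligodendrocyte (6927) and astrocyte (1492) markers.

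Levels of the members differed widely between genes. Per kilobase of exon, in male WT PBS, the mean levels were 251 CPM for Sst and 197 for Cck, followed by 64.4 for Npy, 56 for Gad1, 48.5 for Pvalb, 37.9 for Slc32a1 and 28.5 for Gad2. Vip (8.23), Htr3a (5.7) and Lhx6 (4.69) were the least abundant. All further levels are CPM of the library total and are compared between libraries only.

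**Figure D1:**
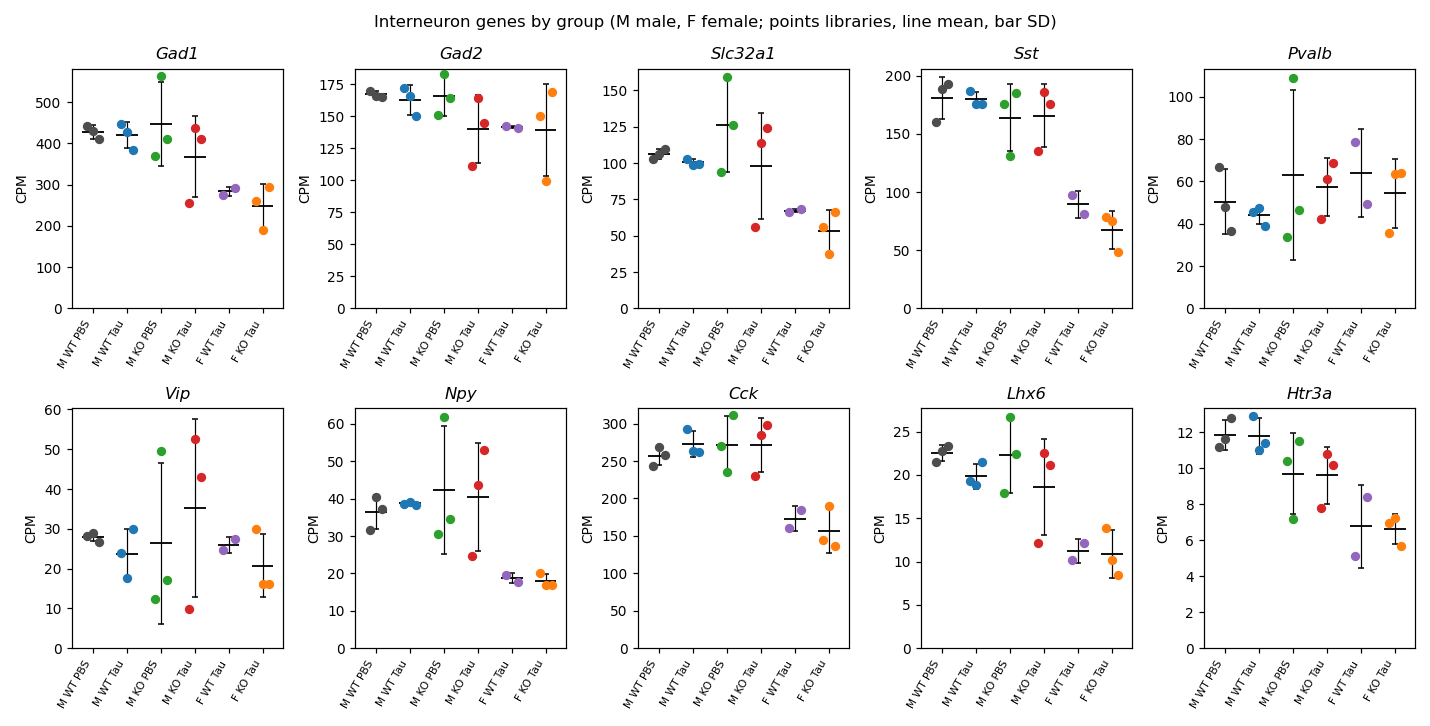
Level of each of the 10 genes in CPM (vertical axis, from 0) in the 6 groups, 1 point per library, with a line at the group mean and a bar of 1 SD. Sst, Npy and Cck of all 5 female libraries sit below all 12 male libraries, and the male KO groups spread more than the male WT groups for most genes.

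Gad1, the decarboxylase that supplies most cellular GABA, was highest by mean in male KO PBS and lowest in female KO Tau. Its levels were 443, 430 and 410 CPM in male WT PBS, 448, 428 and 385 in male WT Tau, then 369, 563 and 412 in male KO PBS (libraries 751, 752 and 753) and 255, 437 and 412 in male KO Tau (711, 712 and 713). In females they were 276 and 291 CPM in WT Tau and 260, 190 and 295 in KO Tau. Neighbouring groups overlapped throughout the order of means (448, 428, 420, 368, 284 and 248 CPM), and the 255 CPM of male KO Tau 711 fell within the female range of 190 to 295.

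Gad2, which makes GABA at synaptic terminals, varied least. It read 170, 166 and 165 CPM in male WT PBS, 172, 166 and 150 in male WT Tau, then 151, 183 and 164 in male KO PBS, 111, 164 and 145 in male KO Tau, 142 and 141 in female WT Tau and 150, 99.4 and 169 in female KO Tau. Male and female libraries overlapped, from 99.4 to 169 CPM in females and from 111 to 183 in males. Slc32a1, the vesicular transporter, read 103, 106 and 110 CPM in male WT PBS, 103, 99 and 99.4 in male WT Tau, then 94.1, 159 and 126 in male KO PBS, 55.9, 114 and 124 in male KO Tau, 66.5 and 68.1 in female WT Tau, and 56.3, 37.7 and 66.1 in female KO Tau. Male KO Tau 711 was again the single male library inside the female range, and the highest of all libraries was male KO PBS 752.

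Sst, the peptide of dendrite-targeting interneurons, separated the sexes. It read 160 to 193 CPM in male WT PBS, 176 to 187 in male WT Tau, 131 to 185 in male KO PBS and 135 to 186 in male KO Tau. In females it was 97.3 and 81.4 CPM in WT Tau and 78.8, 75 and 48.6 in KO Tau, all below the lowest male library. The ranges of female WT Tau and female KO Tau did not overlap, although that comparison did not pass the test (log2 fold change −0.34, SE 0.22). The same held for Slc32a1, at 66.5 to 68.1 CPM against 37.7 to 66.1 (log2 fold change −0.29, SE 0.28). Groups this small can separate by chance, and the share of all genes without overlap between these groups was not counted.

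Npy, a peptide that dampens excitatory transmission, read 31.7, 40.5 and 37.1 CPM in male WT PBS, 38.6, 39.2 and 38.4 in male WT Tau, then 30.6, 61.8 and 34.5 in male KO PBS, and 24.7, 43.7 and 53 in male KO Tau. Female libraries read 19.7 and 17.8 CPM in WT Tau and 20.1, 16.9 and 17 in KO Tau. The male WT Tau libraries were nearly alike, while male KO PBS and male KO Tau each spread more widely than either WT group. Cck, the peptide of a class of basket cells and of pyramidal cells, read 244 to 269 CPM in male WT PBS, 262 to 293 in male WT Tau, 235 to 311 in male KO PBS, 230 to 298 in male KO Tau, 161 and 185 in female WT Tau, and 136 to 190 in female KO Tau.

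Vip, the peptide of interneurons that inhibit other interneurons, was the most variable member in male KO mice. It read 28.3, 28.9 and 26.7 CPM in male WT PBS, 23.9, 17.6 and 29.9 in male WT Tau, then 12.4, 49.6 and 17.2 in male KO PBS (751, 752 and 753), and 9.97, 52.7 and 43.1 in male KO Tau (711, 712 and 713). Female WT Tau gave 24.6 and 27.4 CPM and female KO Tau 29.9, 16.1 and 16.2. The SD over libraries was 1.14 CPM in male WT PBS against 20.3 in male KO PBS and 22.4 in male KO Tau.

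Pvalb, of fast-spiking interneurons, read 36.6 to 66.7 CPM in male WT PBS, 39.1 to 47.2 in male WT Tau, 33.5 to 109 in male KO PBS and 42.1 to 68.9 in male KO Tau. In females it read 49.4 and 78.7 CPM in WT Tau and 35.6 to 64.1 in KO Tau, so that no group stood apart. Lhx6 read 21.5 to 23.3 CPM in male WT PBS, 18.8 to 21.5 in male WT Tau, 17.9 to 26.7 in male KO PBS and 12.2 to 22.5 in male KO Tau, against 8.46 to 13.9 in the 5 female libraries. Htr3a read 11.2 to 12.8 CPM in male WT PBS, 11 to 12.9 in male WT Tau, 7.19 to 11.5 in male KO PBS and 7.82 to 10.8 in male KO Tau, against 5.15 to 8.41 in females. For both Lhx6 and Htr3a, 3 of the 5 female libraries were below every male library.

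The first question of the design was whether Tau alone or loss of Acss2 alone changed these genes in males. Tests were quasi-likelihood F-tests of edgeR fitted over all genes, with adjusted p the Benjamini-Hochberg value and 0.05 as the threshold. For male WT Tau against male WT PBS, the 10 log2 fold changes ran from −0.25 (Vip) to 0.07 (Npy and Cck), with a median of −0.05 against −0.01 over all genes, and 0 of 10 passed, against 0% of the 15098 genes tested. At an unadjusted p under 0.05 there were 281 genes and none of the members. For male KO PBS against male WT PBS they ran from −0.23 (Htr3a) to 0.38 (Pvalb), with 0 of 10 called against a background of 0.00662%, which was 1 gene, Acss2. Both comparisons used the same male WT PBS libraries.

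The double-hit mice were compared in 3 ways, which share the 3 male KO Tau libraries. Against male KO PBS, 9 of the 10 members had negative log2 fold changes, from −0.41 (Slc32a1) to −0.04 (Sst), and Vip was at 0.38. The lowest unadjusted p was that of Gad2 (log2 fold change −0.29, SE 0.13, 95% interval −0.56 to −0.01, edgeR adjusted p = 0.608). None of the 10 was called, against 0% of all genes. Against male WT Tau the range was −0.26 (Htr3a) to 0.59 (Vip, SE 0.56), and against male WT PBS −0.29 (Htr3a) to 0.34 (Vip, SE 0.56). In each, 0 of 10 members passed beside a background of 0.00662%.

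The genotype by treatment interaction in males called 0 members and 0% of all genes, with the widest estimate for Vip (0.63, SE 0.79, 95% interval −1.10 to 2.36). Averaged over treatments, KO against WT ran from −0.25 for Htr3a (adjusted p = 0.945, edgeR) to 0.39 for Pvalb, and averaged over genotypes, Tau against PBS ran from −0.25 for Slc32a1 and Lhx6 to 0.07 for Vip. Neither called a member, with 0.00662% and 0% of all genes called. Intervals were narrow for Cck, whose 95% interval for male KO Tau against male WT Tau was −0.25 to 0.28, and wide for Vip, at −0.64 to 1.81. In females, KO Tau against WT Tau gave −0.34 (Sst) to 0.03 (Gad2) and called 0 of 10 beside 0.00649% of 15419 genes, again Acss2 alone. The sex by genotype interaction ran from −0.86 (Vip, SE 0.71) to 0.27 (Htr3a) with 0 of 10 members and 0% of genes called.

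**Figure D2:**
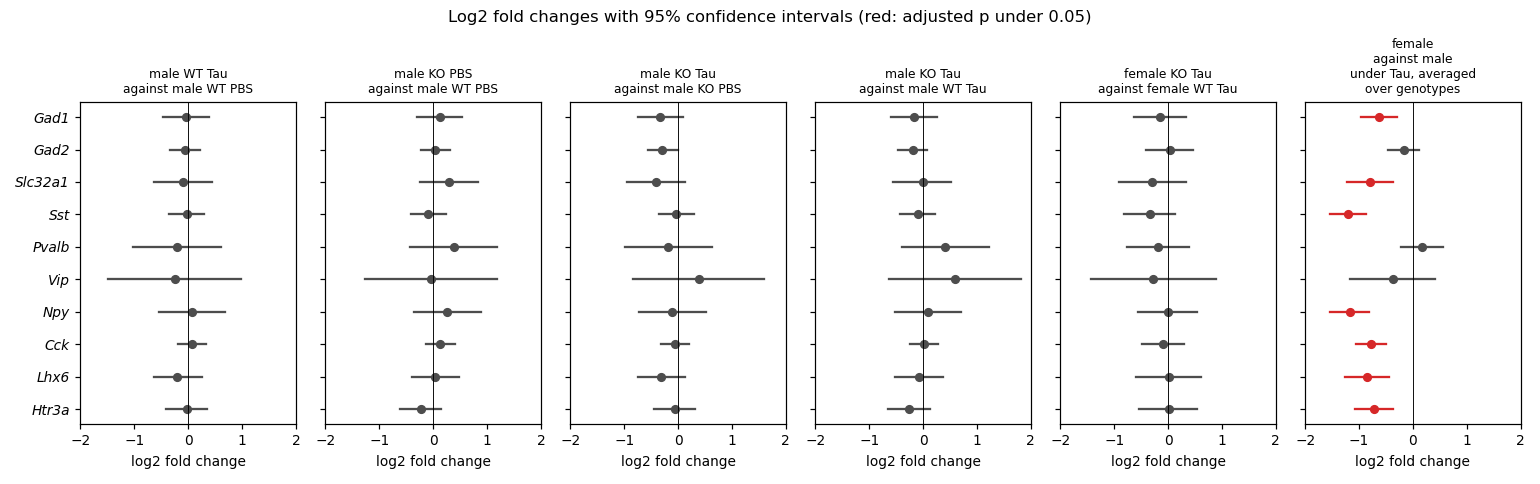
Log2 fold changes (points) with 95% confidence intervals (lines) of the 10 genes in 5 comparisons of genotype or treatment and in female against male mice under Tau, from edgeR, with calls at an adjusted p under 0.05 in red. The first 5 panels hold no call, and the last holds 7, all below 0.

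Vip in male KO Tau was followed further because its group split most. The libraries 712 and 713 read 52.7 and 43.1 CPM, above every library of male WT PBS and male WT Tau, and 711 read 9.97, below all of them. Male KO PBS split in the same way, with 752 at 49.6 CPM and the others at 12.4 and 17.2. The 3 libraries highest in Vip (712, 752 and 713) were also the 3 highest of 17 in the summed level of 6 neocortical markers, Rorb, Cux2, Fezf2 and Tbr1 among them, at 579, 641 and 515 CPM against 181 to 375 in the other 14 libraries. They were the 3 highest in Npy as well. Male KO Tau 711, lowest in Vip, had a neocortical sum of 191 CPM, the lowest of the male libraries. Libraries 752, 712 and 713 had dentate marker sums of 140, 189 and 197 CPM, against 270 to 370 in male WT PBS. Male KO PBS 753, low in Vip, had a sum of 182, but the genes of that list differed. Prox1, Dsp and C1ql2 were lowest among males in 752, 712 and 713, with C1ql2 at 4.96, 25.7 and 37.5 CPM against 55.2 in 753. Plk5 and Calb1 were lowest among males in 753, at 14.3 and 63.5 CPM. Of the neocortical markers, Fezf2 went the other way in 752, at 24.7 CPM the lowest of the male libraries (36.5 to 61 in the others), while Rorb, Cux2 and Tbr1 were each highest in 752, 712 and 713. The part of the neocortical markers in the Vip and Npy levels was not tested.

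**Figure D3:**
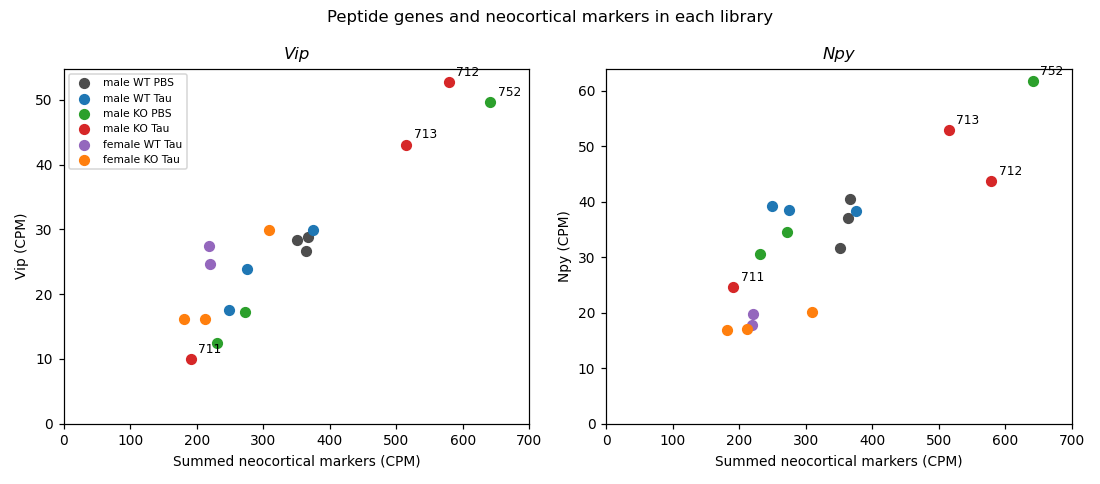
Vip (left) and Npy (right) in CPM against the summed CPM of 6 neocortical marker genes, 1 point per library, coloured by group, with 4 male KO libraries numbered. Libraries 712, 713 and 752 lie at the upper right in both panels, at 515 to 641 CPM of neocortical markers, and 711 at the lower left in Vip.

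Left out together, as an alternative chosen after the data were seen, libraries 711 and 752 changed the calls. Male KO Tau against male KO PBS then called 2 members, Vip (log2 fold change 1.64, SE 0.22, edgeR adjusted p = 0.00254) and Npy (0.52, SE 0.13, adjusted p = 0.0288), with 10.4% of all genes called. In that comparison Npy had turned from negative to positive, as had Gad1 (0.07), Slc32a1 (0.06), Lhx6 (0.06) and Pvalb (0.65), which did not pass. Gad2, Sst, Cck and Htr3a stayed negative. Vip also passed in male KO Tau against male WT Tau (1.02, adjusted p = 0.021, background 4.61%), in the interaction (1.89, adjusted p = 0.00875, background 6.86%) and in Tau against PBS over genotypes (0.70, adjusted p = 0.0441, background 1.08%). Against male WT PBS it was at 0.78 with an adjusted p of 0.0708 in edgeR, and no member was among the 1.27% of genes called. Library 711 was the lowest of the male KO Tau group in Vip and 752 the highest of male KO PBS, so leaving them out widens this difference by construction. The 2 libraries that remained in each KO group, 712 and 713 against 751 and 753, differed in neocortical markers too (579 and 515 against 231 and 272 CPM).

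The study used DESeq2 and plotted fewer male KO Tau libraries than were deposited. With DESeq2 fitted to only the 2 groups compared and without 711, male KO Tau against male WT Tau called Vip (1.02, adjusted p = 9.01e-05), Pvalb (0.58, adjusted p = 0.000157) and Slc32a1 (0.26, adjusted p = 0.0406), beside 9.3% of all genes (1378 genes). Against male WT PBS it called Vip alone among the members (0.78, adjusted p = 5.95e-07), beside 7.13% of genes (1029 genes). Leaving out any single library gave no member call in edgeR in any of the comparisons within males. Of the genes for GABA synthesis and loading, Gad1 and Gad2 were called in none of these male comparisons under these settings. Slc32a1 passed only in the DESeq2 comparison with male WT Tau given above. Lhx6 was called in none.

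The last question was whether the sexes differed under Tau. Female against male, averaged over genotypes, called 7 of the 10 members, all lower in females, against 23.8% of 15419 genes called in all, 12.4% lower and 11.4% higher in females. The median log2 fold change was −0.75 over the members and −0.01 over all genes tested. Of the genes for GABA synthesis and loading, Gad1 was lower by a log2 fold change of −0.63 (SE 0.15, edgeR adjusted p = 0.0163) and Slc32a1 by −0.79 (SE 0.19, adjusted p = 0.0173), while Gad2 was at −0.17 (SE 0.13, 95% interval −0.47 to 0.12, adjusted p = 0.363).

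Of the peptides, Sst was lower at −1.21 (SE 0.15, edgeR adjusted p = 0.00191), Npy at −1.17 (SE 0.17, adjusted p = 0.00344) and Cck at −0.78 (SE 0.12, adjusted p = 0.00488). Vip did not pass, at −0.38 (SE 0.36, 95% interval −1.16 to 0.40, adjusted p = 0.448). Lhx6 was lower at −0.86 (SE 0.19, adjusted p = 0.012) and Htr3a at −0.72 (SE 0.16, adjusted p = 0.0135). Pvalb was at 0.16 (SE 0.18, 95% interval −0.23 to 0.55, adjusted p = 0.521). Among all genes ordered from the lowest fold change, Sst stood at the 0.817th percentile, Npy at 0.882, Lhx6 at 1.92 and Gad2 at 32.3.

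For Sst, Npy and Cck all 5 female libraries were below all 12 male libraries, PBS groups included, as were 2.7% of 15594 genes. The F-test over the 6 groups called the same 7 members (19% of all genes called), and over the 4 male groups alone it called 0. Female WT Tau 331 carried weight here: without it 3 members were called, Sst (−1.27), Npy (−1.20) and Cck (−0.72), all lower in females. Of all genes 3.99% were called, 1.63% lower and 2.36% higher in females. Gad1 (−0.60, adjusted p = 0.0776), Slc32a1 (−0.77, 0.0801), Lhx6 (−0.79, 0.0658) and Htr3a (−0.56, 0.0618) kept their direction in edgeR. Without male KO Tau 711, 8 members were called, Vip joining at −0.58 (adjusted p = 0.0448), and the background was 40.7%.

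Other cell types moved with sex as well. Female libraries had higher summed markers of oligodendrocytes (4327 to 11133 against 2640 to 6927 CPM in males), astrocytes (1250 to 1797 against 822 to 1492), microglia (216 to 263 against 146 to 234), endothelium (136 to 193 against 72.2 to 158) and thalamus (132 to 506 against 117 to 232), by their medians and with overlapping ranges. The 4 excitatory neuron markers did not move together: Slc17a7 was lower, at 723 to 1358 CPM against 1408 to 1860 with no overlap, while Camk2a read 3867 to 8595 CPM in females and 2509 to 7472 in males, and the sum of the list was 4755 to 10136 against 4305 to 9256. The sum of 3 nuclear-retained RNAs, Malat1, Meg3 and Neat1, a list added after the data were seen, was 2336 to 3788 CPM in females (median 3176) and 1441 to 4035 in males (median 2095). Its highest value was that of male KO Tau 711, the male library that lay in the female range for Gad1 and Slc32a1. The neocortical sum was 181 to 309 CPM in females and 191 to 641 in males. The CA1 pyramidal sum was 320 to 702 CPM in females (median 528) and 349 to 883 in males (median 728). Female and male medians were 230 and 238 CPM for CA3 and 333 and 300 for dentate markers. The part of these markers and RNAs in the sex difference was not tested.

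Because Gad1 passed the test between the sexes and Gad2 did not, their ratio was examined, after the values were seen and therefore as a description. Counts of Gad1 were 1.73 to 2.07 times those of Gad2 in the 5 female libraries and 2.29 to 3.07 times in the 12 male libraries, with no overlap. Slc32a1 to Gad2 gave 0.375 to 0.483 in females and 0.504 to 0.867 in males, again without overlap. Sst to Gad2 overlapped at the edges, with 0.287 to 0.755 in females and 0.717 to 1.22 in males. Such ratios are taken within a library and do not depend on its total. The pairs set genes that were called between the sexes over Gad2, which was not, and that choice favours a separation. How many other gene pairs separate these libraries was not counted.

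**Figure D4:**
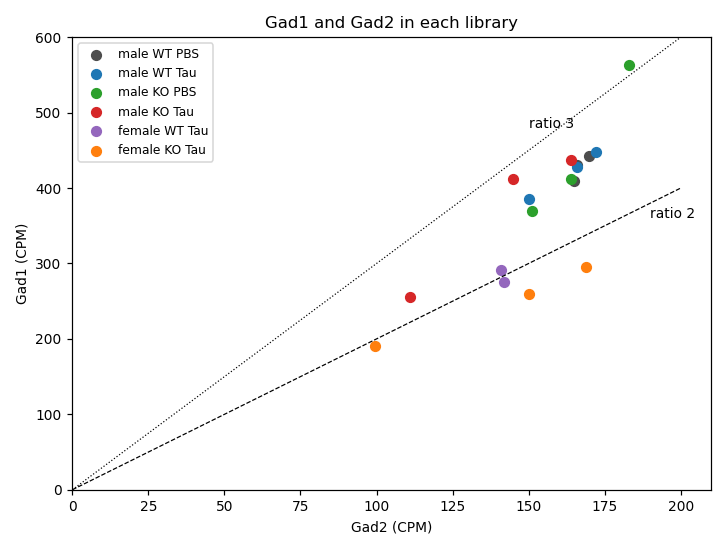
Gad1 against Gad2 in CPM, 1 point per library, coloured by group, with broken lines at ratios of 2 and 3. The 5 female libraries lie near the lower line, at ratios of 1.73 to 2.07, and the 12 male libraries lie above it at 2.29 to 3.07.

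Within groups the genes for GABA synthesis moved together. With group means removed, log2 CPM of Gad1 and Gad2 correlated over 17 libraries at Pearson's r = 0.919 and Spearman's rho = 0.958 (permutation p = 1e-05 for each, the smallest that the permutations can give, adjusted over 3 relations 1.5e-05 and 3e-05). Gad1 and Slc32a1 gave r = 0.951 and rho = 0.809 (permutation p = 1e-05 and 0.00016, adjusted 1.5e-05 and 0.00024). Without male KO Tau 711 and female KO Tau 324, farthest from the median, r was 0.886 and 0.898. Gad1 and Lhx6 gave r = 0.612 (permutation p = 0.00842, adjusted 0.00842) and rho = 0.483 (permutation p = 0.053, adjusted 0.053), and r was 0.426 without those 2 libraries. In the 12 male libraries alone r was 0.96, 0.936 and 0.89 for the 3 relations, and 0.937, 0.856 and 0.746 without 711 and 752. Over the 45 pairs of members the median r was 0.43, with 19 pairs over 0.5 and 12 under 0. High values outside the GABA genes were 0.91 for Vip and Lhx6 and 0.90 for Vip and Npy, and the lowest was −0.52 for Pvalb and Htr3a. Libraries share 1 total each, so these values describe shares of a library. The permutations shuffled the deviations over all 17 libraries although group means had been removed, so the permutation p are likely too small.

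Of 11675 other genes at a mean of at least 5 CPM, those closest to the mean of Gad1, Gad2 and Slc32a1 by r over the 17 libraries were Cul1 (0.95), Plpp1 (0.94), Tecr (0.94), Nova1 (0.93) and Cacna2d2 (0.93). Spearman's rho was 0.96, 0.86, 0.64, 0.83 and 0.82 in that order, so the rank relation was weakest for Tecr. Cul1 is a scaffold of ubiquitin ligases, Nova1 a neuronal splicing factor and Cacna2d2 a calcium channel subunit.

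Further genes of the inhibitory system were read from 4 lists. None of their genes passed in any comparison of genotype or treatment, or in an interaction, in either sex. The sex calls below rested on female WT Tau 331: without it 1 gene of the 4 lists was called, Cort, with 1.63% of all genes lower and 2.36% higher in females. For female against male under Tau with all libraries, 4 of the 10 genes for GABA reuptake, breakdown and precursor supply were higher in females, against 11.4% of all genes, and none lower: Slc6a11, the astrocyte transporter GAT-3 (log2 fold change 0.84), Glul, the astrocyte glutamine synthetase (0.71), Abat, the GABA transaminase (0.47), and Aldh5a1, the next enzyme of GABA breakdown (0.34). Glul read 2541 to 3779 CPM in females and 1571 to 2959 in males under Tau, and astrocyte marker sums moved the same way, as given above.

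Of 14 tested transcription factors of interneuron lineages, 6 were lower in females, against 12.4% of all genes, and none higher. Among them were Dlx1 (−0.69), Dlx2 (−0.80), Dlx5 (−0.81) and Dlx6 (−1.14), homeobox factors of forebrain GABAergic lineages, and Satb1 (−0.79), needed for maturing Sst cells and also expressed in cortex. Dlx1 read 4.99 to 8.39 CPM in females and 8.2 to 11.7 in males under Tau. Sox6 (0.16) and Maf (−0.03) did not pass. The median over the 14 was −0.52, and 3 of the 14 had positive log2 fold changes, up to 0.56.

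Of 24 further subclass markers, 4 (beside 12.4% of all genes) were lower and none higher, with a median of −0.29. That share is near the background, and 7 of the 24 had positive log2 fold changes, up to 0.64. Cort (−1.07), a peptide closely related to somatostatin, and Crhbp (−0.79), the binding protein of corticotropin-releasing hormone, are found in Sst cells. Crhbp read 12.3 to 24.7 CPM in females and 27.8 to 44.5 in males under Tau. The share of all genes without overlap between these libraries was not counted. Lamp5 (−1.40), of neurogliaform cells and cortical layers, and Reln (−0.77), the secreted glycoprotein reelin, were the others. Of 10 tested receptors for the 4 peptides, 2 were lower in females, Vipr1 (−0.51) and the cholecystokinin receptor Cckbr (−1.95), and 1 was higher, Vipr2 (1.73). Beside 12.4% of all genes lower and 11.4% higher, these shares of a short list are near the background. Cckbr, also a gene of cortical pyramidal cells, ranged from 6.81 to 83.2 CPM within the male Tau libraries.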

How the data were processed

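Poly(A) RNA from 17 dorsal hippocampi was sequenced. The authors deposited raw counts per gene symbol with no normalization. Per the submitters' processing notes and the study's methods, reads were aligned with STAR 2.5.2 to GRCm38 (mm10) and counted over exons with HTSeq 0.9.1 in reverse-stranded mode. The annotation release is not given in the sources used here. The notes also name DESeq2, which the study ran on male libraries.

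Groups came from the labels. Counts were tested in R 4.3.3 with edgeR 4.0.16 (TMM factors, filterByExpr with a minimum count of 10 and a minimum total of 15, quasi-likelihood F-test, Benjamini-Hochberg at 0.05). Comparisons within males came from 1 fit of the 12 male libraries, those with females from 1 fit of the 11 Tau libraries, and the 6-group test from all 17. The fit was tested on simulated data with the same dispersion for every gene and no outlying library, so that test did not cover outlying libraries. P-values measure the spread between these libraries, which the series describes as biological replicates. CPM are counts scaled by the library total with no TMM factor, and detection limits cover counting error only. Of the 136 pairs of libraries, 0 had identical counts. Positions and exon lengths came from GENCODE M21, in which 96.4% of the symbols had a gene of that name, and start windows from RefSeq on GRCm38.p6.

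The members and lists were chosen with earlier results of these data known. All 10 members are named in every summary or by range, list genes where they passed in a comparison or had a low unadjusted p over the 6 groups, and the 5 genes most like Gad1, Gad2 and Slc32a1. Sox6 and Maf were named after their values were seen. Some list genes are counted but not reported here by name. Alternatives were DESeq2 1.42.0 (on all groups or on those compared), limma 3.58.1 (voom), RLE factors, no expression filter, other sets of libraries in the fit, length and GC offsets, and leaving out libraries.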

Additional observations from a re-analysis of the deposited data

How the results depend on the processing

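Of 203 alternative settings of the 10 comparisons other than female against male and the 6-group test, 197 called no member. The exceptions were chosen after the data were seen. Without male KO Tau replicate 711 and male KO PBS replicate 752, edgeR called 2 members in male KO Tau against male KO PBS, 1 against male WT Tau, 1 in the interaction and 1 in Tau against PBS over genotypes, with Vip at 1.64, 1.02, 1.89 and 0.70 in that order and at 0.78 against male WT PBS. With DESeq2 on only the groups compared and without 711, it called 3 members against male WT Tau and 1 against male WT PBS. The F-test over the 4 male groups called 0. Female against male called 3 to 8 members over the single libraries left out, 3 without female WT Tau 331 and 8 without male KO Tau 711, and length and GC offsets lost Slc32a1 (−0.57, adjusted p = 0.0523, edgeR).

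Signs turned only for values that did not pass in the main tests. Pvalb in female against male was at −0.02 with length and GC offsets and ran from −0.01 (without 331) to 0.30 (without 341) as single libraries were left out. Vip ranged from −0.02 to 1.21 in male KO Tau against male KO PBS, from −0.05 to 0.77 against male WT PBS and from −0.13 to 0.48 in Tau against PBS over genotypes as single libraries were left out, lowest in each without male KO Tau 712.

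Genes called over all alternatives ranged from 628 to 6290 for female against male, from 1 to 5930 for the 6-group test (1 with male groups alone), from 0 to 1577 for male KO Tau against male KO PBS, from 1 to 1378 against male WT Tau, from 1 to 1029 against male WT PBS, from 0 to 1044 for the interaction, from 0 to 164 for Tau against PBS, from 1 to 10 for KO against WT, from 0 to 11 for WT Tau against WT PBS, from 1 to 4 for KO PBS against WT PBS, from 0 to 4 for the female genotype comparison and from 0 to 1 for sex by genotype. No paired analysis was possible because the groups share no replicate number. Groups of 2 or 3 libraries leave wide intervals for Vip and Pvalb, and a p that misses the threshold does not show that groups were alike.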
